A study of Homo sapiens with 8 samples.

Results

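A set of 10 intermediate filament genes was followed in medulloblastoma cells that carry an inducible inhibitor of MYC, without and with its inducer doxycycline. The genes were *SYNM*, *VIM*, *NES*, *GFAP*, *NEFL*, *NEFM*, *NEFH*, *INA*, *DES* and *PRPH*. They were taken by symbol, and all 10 matched 1 row each among the 60668 gene identifiers of the expression files. The list holds the neural and mesenchymal filament genes with *SYNM*, and it was selected on the change between OMO and OMO+DOX, the log2 fold changes of this very comparison being known when it was drawn up. For that reason the values of its members are a description, and where the calls of the fit across all genes are counted for them, the counts support nothing. Intermediate filaments are rope-like polymers of the cytoskeleton, built from rod-shaped proteins that pair through a coiled coil. Vimentin, desmin, glial fibrillary acidic protein and peripherin can form filaments by themselves, whereas nestin and synemin join filaments built by a partner such as vimentin or desmin. The light, medium and heavy neurofilament proteins assemble with each other and with alpha-internexin in the axon, where they set its calibre, and nestin is a familiar marker of neural progenitors.

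D283 Med is an established medulloblastoma cell line, and D283-OMO cells are a derivative with a lentiviral transgene for FLAG-tagged OMOMYC, a dominant-negative form of MYC, under a promoter that doxycycline (DOX) switches on. The transduced cells were kept under hygromycin selection, and the sources used here do not say whether they came from a clone. The 4 OMO libraries came from D283-OMO cells without DOX and the 4 OMO+DOX libraries from the same line kept in DOX for 72 h, so both groups carry the transgene. Libraries of D283 cells that lack the transgene and received DOX were not analysed here, and the effects of the drug and of OMOMYC cannot be told apart. In bulk RNA, fewer cells that express a gene and less of its RNA per cell cannot be told apart either.

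The libraries held 46592947 to 54020506 counts without DOX and 38390696 to 49249167 with it. A count of 3, taken as the floor of detection, was worth 0.0555 to 0.0781 CPM (counts scaled to a common library size) by total counts. Gene levels in CPM use TMM-scaled library sizes instead, and the floor itself was applied to counts. Pearson's r of log2 levels across genes was 0.9893 to 0.9965 within OMO, 0.9941 to 0.9968 within OMO+DOX and 0.8644 to 0.8824 between the groups, and OMO replicate 3 had the lowest mean r with its own group (0.9903, against 0.9940 to 0.9946 for the other 3). *MYC*, whose reads cannot be told apart from any reads of the transgene, stood at 939 ± 75.6 CPM (SD, n = 4) in OMO and 1123 ± 56.8 CPM in OMO+DOX (log2 fold change, log2FC, 0.26), and its groups overlapped. *CAD* and *NCL*, known targets of MYC, fell by 0.48 and 0.44 on the log2 scale. *OTX2*, a transcription factor that marks this tumour type, was at 1029 CPM or more in every OMO library and at 508 to 512 CPM with DOX. All 7 tested of 8 medulloblastoma and neuronal markers fell at an adjusted p (FDR, Benjamini-Hochberg) below 0.05 by edgeR's quasi-likelihood test. Over all tested genes 38.1% fell at that FDR. *CRX* (log2FC −2.59) and *NEUROD1* (log2FC −2.23) were furthest down, and the part of these markers in the results below was not tested. These markers and the other gene lists below were drawn up with results of these data known, and nothing is read from their counts.

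Promoter sequence was at hand for 5 of the 10 genes, *NES*, *VIM*, *INA*, *PRPH* and *SYNM*, in a table of RefSeq promoters (GRCh38.p14) that span 300 bases around the start. They are shown because the genes behind them went in different directions between OMO and OMO+DOX. The letters CACGTG, the E-box that MYC and MAX are known to bind, were in none of the 5 windows and in 7.26% of 35116 promoters of the same length, searched on both strands. GGGCGG, the core of a GC box, was present on either strand in *INA*, *NES*, *SYNM* and *VIM* and in 45.0% of all promoters. TATAAA was found in *PRPH* and in 11.5% of all promoters, and CCAAT in *SYNM* and in 34.6%. The stretch from 40 to 11 bases before the start, where a TATA box would lie, is given for each gene 5′ to 3′ on the strand of the gene, and a further stretch of *SYNM* holds its CCAAT on the reverse strand (ATTGG), with capitals for TATAAA or CCAAT.
SYNM: ccccgtccgctaagtgcctgggctctcccg
SYNM, CCAAT: ggccgcgctctgATTGGctggaggccgcgg
NES: ggcgggagtatgaatagcctcgctcccact
VIM: ggactctgcaagaaaaaccttcccggtgca
INA: agccccggcgccttaaaagccgggcgcacc
PRPH: ccgcagggcTATAAAgccgcctcgcagcgg
These lie at chr15:99105040-99105069 (plus strand) and chr15:99104978-99105007 (plus) for *SYNM*, chr1:156677418-156677447 (minus) for *NES*, chr10:17228201-17228230 (plus) for *VIM*, chr10:103277098-103277127 (plus) for *INA* and chr12:49295107-49295136 (plus) for *PRPH*. *PRPH*, which fell, was the only member among the 5 with TATAAA in this window, and the *SYNM* promoter was the richest in G and C, at 79.0% against 48.0% for *VIM*. A match of letters is a description of the sequence and not a site, and its absence says only that the letters are not in the window. The RefSeq starts of *SYNM* and *PRPH* lie downstream of the first base that GENCODE 29 gives for these genes.

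Between OMO and OMO+DOX the 10 genes did not move as a block. *SYNM*, *NEFL*, *NES*, *DES* and *NEFM* stood higher in all 4 OMO+DOX libraries than in any OMO library, *NEFH*, *PRPH* and *VIM* stood lower in all 4, and the groups overlapped for *INA* and *GFAP*. A gene was tested if 4 or more of the 8 libraries exceeded 1 CPM, a rule that kept 9 of the 10 and left out *GFAP*, and *DES* passed only through the OMO+DOX libraries. At the thresholds of the study's methods (FDR below 0.001 and absolute log2FC above 2, called the study's thresholds from here on), 2 members were called, *SYNM* and *NEFL*, both higher, beside 7.12% of the 15222 genes tested (4.38% higher and 2.75% lower). With the size threshold lowered to an absolute log2FC of 1, 6 members passed, beside 20.7% of all genes. At an FDR below 0.05, 5 members were higher, 3 lower and 1 not called, beside 76.6% of all genes called (38.5% higher and 38.1% lower). For 8 members the groups did not overlap, which was so for 71.7% of all genes. Since the list was made with this comparison in view, nothing is read from these counts. The median log2FC was 0.45 over the 9 tested members and 0.01 over all genes.

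**Figure D1:**
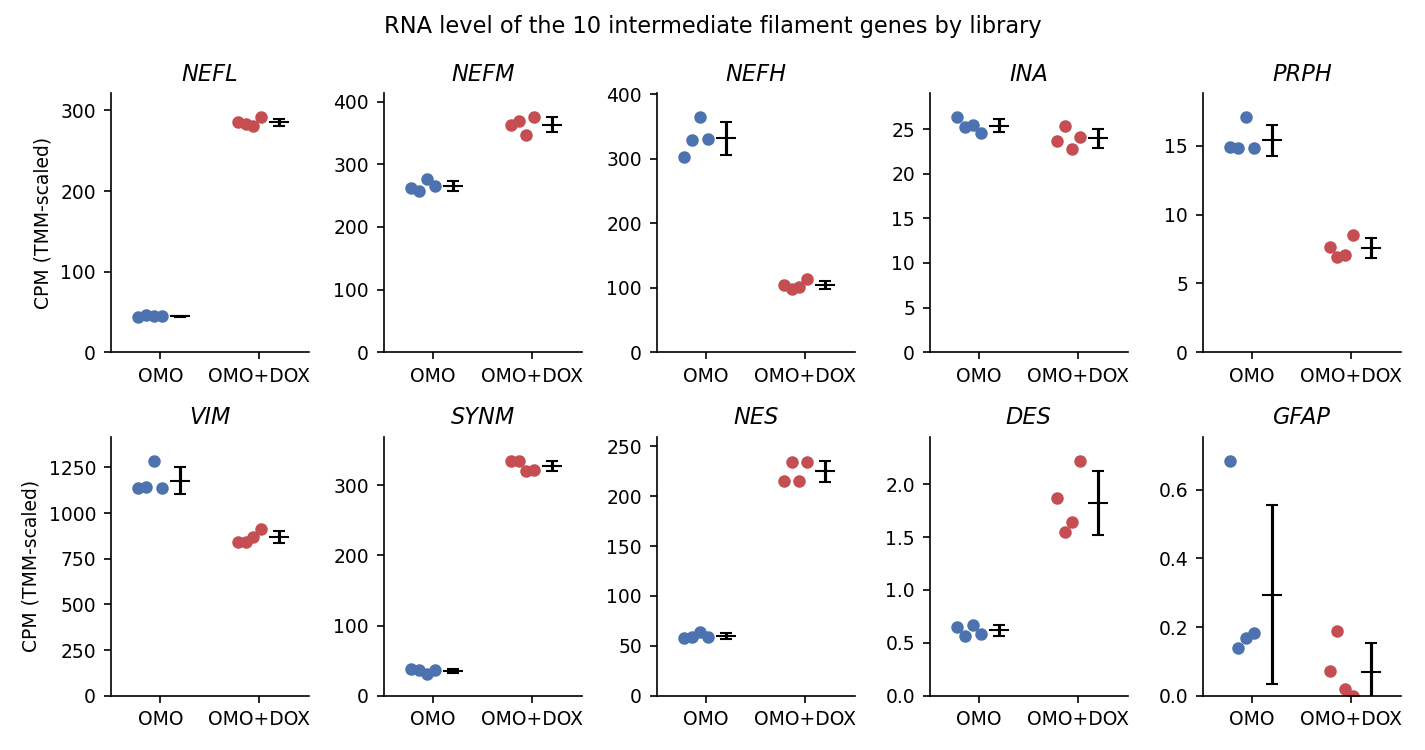
RNA level of the 10 genes in CPM with TMM-scaled library sizes, 1 panel a gene with its own axis from 0. Blue points are the 4 OMO libraries, red points the 4 OMO+DOX libraries, and the black mark beside them is the mean with its SD, drawn down to 0 at most. *NEFL*, *SYNM* and *NES* separate most widely upward and *NEFH* downward, *INA* overlaps, and *GFAP* is near the floor apart from OMO replicate 1.

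The neurofilament triplet was split. *NEFL* (ENSG00000277586, chr8:24950955-24957110, minus strand, GENCODE 29 on GRCh38), the light subunit on which the other neurofilament proteins assemble, was at 43.1, 45.6, 44.6 and 44.5 CPM in OMO replicates 1 to 4 and at 285, 283, 281 and 292 CPM in OMO+DOX. Every treated library was thus far above every untreated one, and the spread within a group was small, with a coefficient of variation of 2.27% and 1.64%. The median was 7.63% and 5.98% over all tested genes, which include genes close to 1 CPM. *NEFM* (2.94% and 3.29%) and *INA* (2.97% and 4.46%) were below that median too. The mean went from 44.4 ± 1.01 to 285 ± 4.69 CPM (SD, n = 4), a 6.42-fold rise with a log2FC of 2.68 ± 0.04 (SE). By log2FC *NEFL* ranked 448th from the top of 15222 genes.

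*NEFM* (ENSG00000104722, chr8:24913012-24919098, plus strand), the medium subunit, lies 31857 bp from *NEFL* and is transcribed from the opposite strand. It was at 262, 258, 276 and 266 CPM without DOX and at 363, 369, 347 and 375 CPM with it. The groups did not overlap, but the step was smaller than that of *NEFL*: 1.37-fold, log2FC 0.45 ± 0.04 (SE). Per kilobase of transcript, its level in untreated cells was 66.1 CPM per kb against 10.9 for *NEFL*.

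*NEFH* (ENSG00000100285, chr22:29480230-29491390, plus strand), the heavy subunit with the long phosphorylated tail, went the other way. OMO replicates 1 to 4 gave 303, 329, 365 and 330 CPM and OMO+DOX replicates 104, 98.6, 102 and 114 CPM. The lowest untreated library was well above the highest treated library. The mean fell from 332 ± 25.3 to 105 ± 6.62 CPM (SD, n = 4), 3.17-fold lower, with a log2FC of −1.67 ± 0.07 (SE). It ranked 629th from the bottom of the tested genes and fell the most of the 9 tested members.

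Because RSEM counts scale with transcript length, levels were set against each other per kilobase of the principal GENCODE 29 transcript (4082 nt for *NEFL*, 4020 nt for *NEFM*, 3783 nt for *NEFH*). On this scale the sum of the triplet moved from 165 ± 8.43 to 188 ± 5.24 CPM per kb (SD, n = 4), while its make-up turned over. *NEFH* supplied 53.2% ± 1.39 of the sum in untreated cells and 14.7% ± 0.626 after DOX. *NEFL* went from 6.62% ± 0.297 to 37.2% ± 0.473, and *NEFM* from 40.2% ± 1.21 to 48.1% ± 0.693. The shares of *NEFH* were between 51.4% and 54.8% in the 4 OMO libraries and between 13.9% and 15.5% in the 4 OMO+DOX libraries. In untreated cells, then, the heavy subunit led and the light subunit came last by RNA, and in treated cells the medium subunit led and the heavy came last.

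**Figure D2:**
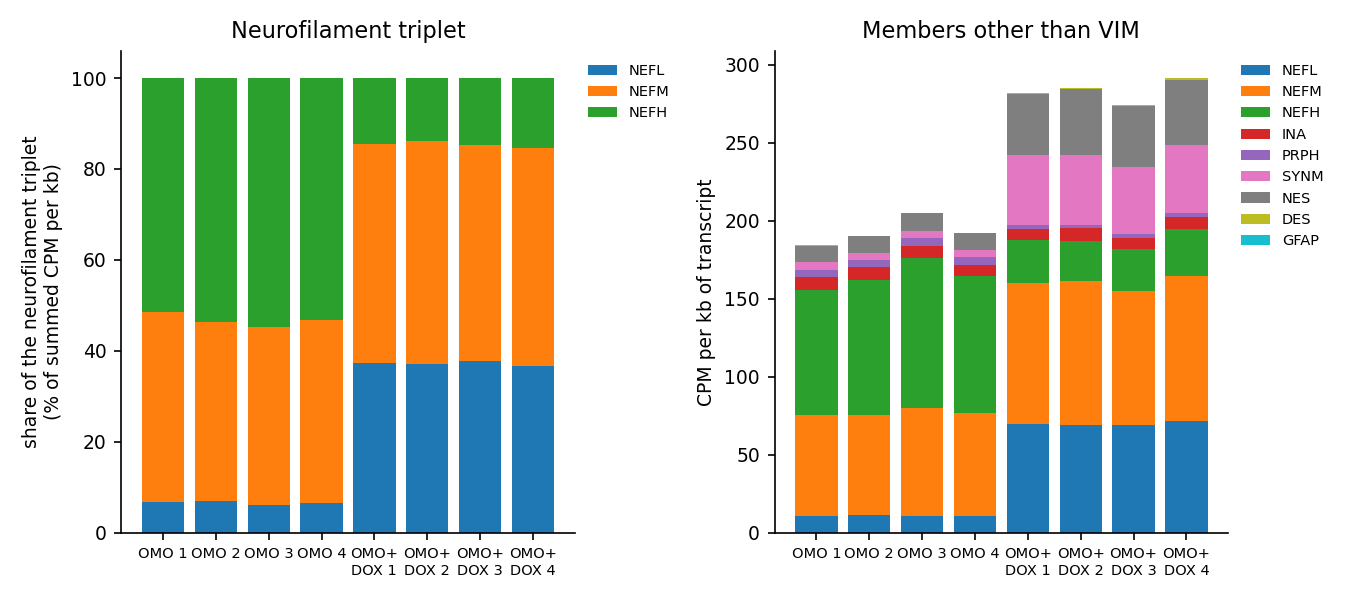
Left, share of *NEFL*, *NEFM* and *NEFH* in their summed CPM per kb in each library, in percent. Right, CPM per kb of the 9 members other than *VIM*, stacked, in each library. The *NEFH* share drops from above 51.4% to below 15.5% in every treated library as that of *NEFL* grows, and on the right the total rises from 193 to 283 CPM per kb on average with *NEFL*, *SYNM* and *NES*.

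The same turn is seen in ratios within a library, which do not depend on how libraries are scaled to each other. There were 7.45 *NEFH* counts for each *NEFL* count in OMO and 0.366 in OMO+DOX. The log2 ratio of *NEFH* to *NEFL* was 2.81, 2.85, 3.03 and 2.89 in OMO replicates and −1.46, −1.52, −1.47 and −1.36 in OMO+DOX replicates. It crossed zero in all 4 treated libraries, a change of −4.35 of the means. For *NEFM* to *NEFL* the log2 ratio went from 2.58 ± 0.06 to 0.35 ± 0.03 (SD, n = 4), so that counts of the medium subunit still exceeded those of the light one with DOX.

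*INA* (ENSG00000148798, chr10:103277163-103290351, plus strand) encodes alpha-internexin, which joins the triplet in neurons of the central nervous system. It was at 26.3, 25.2, 25.4 and 24.5 CPM in OMO and at 23.6, 25.3, 22.8 and 24.1 CPM in OMO+DOX. The groups overlapped, and the log2FC was −0.08 ± 0.05 (SE). With library size alone as the scaling it had the other sign (log2FC 0.042, beside a median of 0.14 over all genes). Against *NEFL* its log2 ratio nevertheless dropped from −0.81 ± 0.07 to −3.58 ± 0.06 (SD, n = 4), through the rise of *NEFL* counts.

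*PRPH* (ENSG00000135406, chr12:49293252-49298686, plus strand) encodes peripherin, the filament protein of peripheral neurons, and carries the TATAAA shown above. Untreated replicates gave 14.9, 14.8, 17.1 and 14.8 CPM and treated replicates 7.68, 6.93, 7.08 and 8.52 CPM. All treated libraries were lower, by 2.04-fold on average (log2FC −1.03 ± 0.08, SE; 15.4 ± 1.12 to 7.55 ± 0.722 CPM, SD, n = 4). Its log2 ratio to *NEFL* fell from −1.53 ± 0.10 to −5.24 ± 0.11. Of 8 markers of peripheral neurons and Schwann cells, 3 were tested and all 3 were lower with DOX at an FDR below 0.05. Over all tested genes 38.1% were lower at that FDR. *SCN10A*, a sodium channel gene that defines sensory neurons, had 0 counts in all 8 libraries. The part of these markers in the *PRPH* value was not tested.

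**Figure D3:**
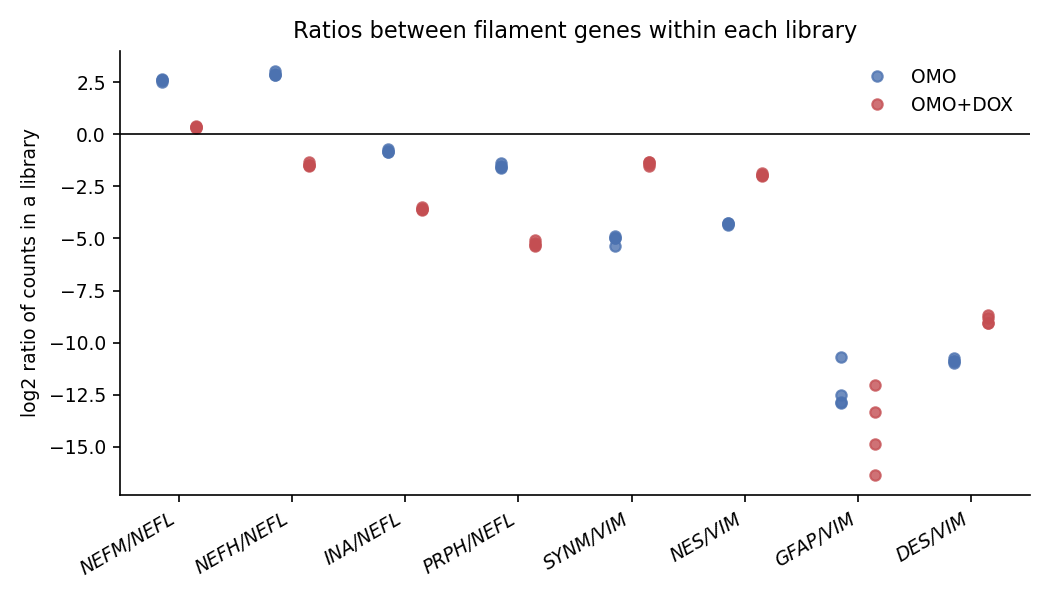
Log2 ratio of the counts of pairs of members within each library (0.5 added to each count), blue for the 4 OMO and red for the 4 OMO+DOX libraries, 1 point a library. The groups are apart for 7 of the 8 pairs and overlap for *GFAP* to *VIM*, and *NEFH* to *NEFL* crosses the zero line.

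*VIM* (ENSG00000026025, chr10:17228259-17237593, plus strand) encodes vimentin, the filament protein of mesenchymal cells and of immature neural cells, and was the most abundant member by far. It was at 1139, 1141, 1288 and 1138 CPM without DOX and at 843, 843, 868 and 913 CPM with it. The groups did not overlap, and replicate 3 stood above the other untreated libraries. The mean fell from 1176 ± 74.2 to 867 ± 33.0 CPM (SD, n = 4), 1.36-fold lower, log2FC −0.44 ± 0.05 (SE). Per kb, *VIM* was 76.5% ± 0.484 of the summed level of the 10 members in OMO and 62.1% ± 0.798 in OMO+DOX.

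*SYNM* (ENSG00000182253, chr15:99098217-99135593, plus strand) encodes synemin, a large protein that needs vimentin, desmin or another partner to enter a filament and links it to the cell cortex. It had the largest change of the tested members. The OMO libraries read 38.2, 36.2, 31.1 and 36.6 CPM and the OMO+DOX libraries 334, 334, 321 and 321 CPM. No treated library came near an untreated one. The mean rose 9.22-fold, from 35.5 ± 3.10 to 327 ± 7.69 CPM (SD, n = 4), with a log2FC of 3.20 ± 0.07 (SE), ranking 335th from the top of the tested genes. For every *VIM* count there were 0.0302 *SYNM* counts in OMO and 0.378 in OMO+DOX, a change of 3.65 in the log2 ratio.

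*NES* (ENSG00000132688, chr1:156668763-156677397, minus strand) encodes nestin, the partner of vimentin in neural progenitors. Untreated libraries were at 57.5, 59.0, 63.5 and 58.9 CPM and treated libraries at 216, 235, 216 and 234 CPM. All treated values were above all untreated ones. The rise was 3.76-fold, from 59.8 ± 2.61 to 225 ± 10.8 CPM (SD, n = 4). Its log2FC of 1.91 ± 0.05 (SE) lay just under the size threshold of 2 that *NEFL* passed, and with library size alone as the scaling it was 2.04, so that 3 members were then called. The log2 ratio of *NES* to *VIM* went from −4.30 ± 0.03 to −1.95 ± 0.07, so both proteins that enter vimentin filaments as partners gained RNA as vimentin itself lost some.

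*DES* (ENSG00000175084, chr2:219418377-219426739, plus strand) encodes desmin, the muscle filament protein, and was barely present. It was at 0.653, 0.561, 0.671 and 0.583 CPM in OMO and at 1.87, 1.55, 1.64 and 2.22 CPM in OMO+DOX, which rest on 26 to 101 counts. The treated libraries were all higher, by 2.95-fold (log2FC 1.56 ± 0.15, SE), and the gene entered the test only because they exceeded 1 CPM. In a list of 11 muscle markers, 3 of the 5 tested rose and 2 fell at an FDR below 0.05. Over all tested genes 38.5% rose and 38.1% fell. Furthest up in the list was *TTN*, the giant sarcomere protein (1.49 ± 0.433 to 4.09 ± 0.652 CPM, log2FC 1.45, edgeR quasi-likelihood FDR 3.63e-05). *MYF5*, which defines muscle precursors, had 0 counts in all 8 libraries, and *MYL1* was at 0.041 CPM or less. Summed, the muscle list gave 43.5 to 57.1 CPM in OMO and 40.2 to 44.4 CPM in OMO+DOX, and its part in the *DES* value was not tested.

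*GFAP* (ENSG00000131095, chr17:44903161-44916937, minus strand), the filament gene of astrocytes, had 33.57, 7.23, 8.22 and 8.20 expected counts in the untreated libraries and 3.67, 7.56, 1 and 0 in the treated ones. In CPM these were 0.685, 0.140, 0.167 and 0.184 without DOX and 0.0724, 0.188, 0.0195 and 0 with it. The groups overlapped, and OMO replicate 1 stood alone. The gene did not pass the filter on low counts and was not tested. In a fit without the filter its log2FC was −2.05, past an FDR of 0.05, on the counts given here. These counts were not whole in 6 libraries, and *GFAP* shares exonic bases with *CCDC103* and *FAM187A*, described below. Of 8 astrocyte markers, 4 were tested and all 4 were lower with DOX at an FDR below 0.05, beside 38.1% of all tested genes. *SOX9*, a regulator of the glial lineage, had the largest change (90.6 ± 7.29 to 12.2 ± 0.831 CPM, log2FC −2.90, edgeR quasi-likelihood FDR 1.52e-11). The defining markers *AQP4*, *ALDH1L1*, *S100B* and *FABP7* were at 0.330 CPM or less throughout. The summed astrocyte list was at 274 to 308 CPM in OMO and 99.0 to 110 CPM in OMO+DOX. The 8 fibroblast markers summed to 36.6 to 38.4 CPM in OMO and 57.0 to 70.7 CPM in OMO+DOX. Of the 8, 3 were tested and 2 were higher at an FDR below 0.05, beside 38.5% of all tested genes. *PDGFRB*, a receptor of pericytes and fibroblasts, was among them and rose from 13.5 ± 0.466 to 40.4 ± 4.48 CPM (log2FC 1.58, edgeR quasi-likelihood FDR 4.31e-09). Of the others, *DCN* was at 0.429 to 0.807 CPM in OMO and 0.0249 CPM or less in OMO+DOX, *COL1A2* at 0.142 to 0.336 CPM and 0.0440 CPM or less, and *COL3A1* at 0.0204 CPM or less and 0.324 to 0.352 CPM. *LUM* and *THY1* were at 0.183 CPM or less in every library, and the part of these cells in the *VIM* value was not tested.

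**Figure D4:**
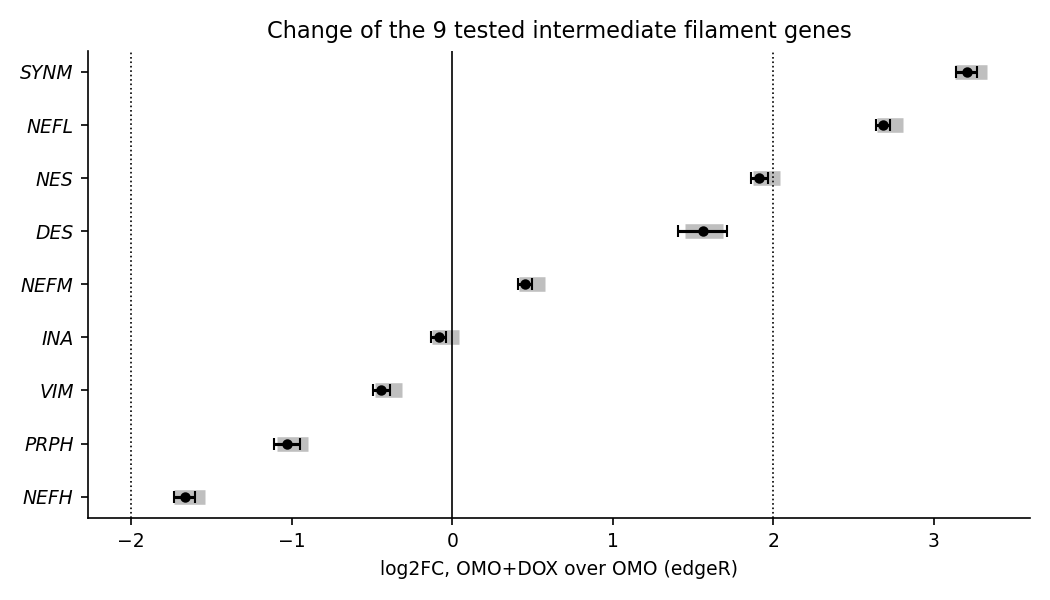
Log2FC of OMO+DOX over OMO for the 9 tested members from edgeR (black points, bars for the SE). Grey bands give the range over all settings tried, and dotted lines mark a log2FC of 2 and −2. *SYNM* (3.20) and *NEFL* (2.68) lie beyond 2, *NES* (1.91) just inside, *INA* (−0.08) at zero and *NEFH* (−1.67) lowest.

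Ordered per kb, the untreated cells had *VIM* (630 CPM per kb), *NEFH* (87.7), *NEFM* (66.1), *NEFL* (10.9), *NES* (10.8), *INA* (7.85), *SYNM* (4.80), *PRPH* (4.75), *DES* (0.274) and *GFAP* (0.0450). The libraries of *NEFL* and *NES* overlapped, as did those of *SYNM* and *PRPH*, so neither pair could be ranked. With DOX the order was *VIM* (464 CPM per kb), *NEFM* (90.5), *NEFL* (69.9), *SYNM* (44.3), *NES* (40.5), *NEFH* (27.6), *INA* (7.41), *PRPH* (2.33), *DES* (0.810) and *GFAP* (0.0107), and no neighbours in it overlapped. *NEFH* moved from rank 2 to rank 6 and *SYNM* from rank 7 to rank 4. Leaving *VIM* aside, the members summed to 193 ± 8.69 CPM per kb in OMO and 283 ± 7.17 CPM per kb in OMO+DOX (SD, n = 4).

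OMO replicate 3, the library least like its group, had the highest *VIM*, *NES*, *NEFM*, *NEFH* and *PRPH* and the lowest *SYNM* of the untreated libraries. Without it the log2FC was 3.13 for *SYNM*, 2.67 for *NEFL*, 1.93 for *NES*, −0.41 for *VIM*, −1.63 for *NEFH* and −0.99 for *PRPH*, each in the same direction as with it.

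The remaining genes of the filament system came from lists of related genes, drawn up with results of these data known. Nothing is read from their counts. Among 20 other intermediate filament genes, which include the lamins of the nuclear envelope and the keratins of epithelia, 11 were tested. At an FDR below 0.05, 3 rose, 7 fell and 1 was not called, beside 38.5% of all tested genes higher and 38.1% lower. Their median log2FC was −0.44 against 0.01 over all genes. *KRT7* fell from 4.31 ± 0.530 to 0.889 ± 0.156 CPM (SD, n = 4; log2FC −2.27, edgeR quasi-likelihood FDR 4.00e-08). *KRT8* fell from 15.8 ± 1.75 to 3.72 ± 0.424 CPM (log2FC −2.08, FDR 5.14e-09). *LMNB1* and *SYNC* were picked out after their values were seen: lamin B1 fell from 335 ± 5.54 to 90.2 ± 3.0 CPM (log2FC −1.89) and syncoilin, a muscle filament protein, rose from 5.51 ± 0.661 to 12.4 ± 1.03 CPM (log2FC 1.17). None of these 20 passed the study's thresholds upward, and 2 passed them downward, beside 4.38% and 2.75% of all tested genes.

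Of 24 genes for proteins that link filaments to other structures or keep them in shape, 23 were tested. At an FDR below 0.05, 9 rose, 9 fell and 5 were not called, beside 38.5% of all tested genes higher and 38.1% lower. Their median log2FC was 0.11. *HSPB8*, a small heat shock protein, rose from 17.3 ± 0.897 to 76.8 ± 2.87 CPM (log2FC 2.15, edgeR quasi-likelihood FDR 1.28e-11) and was the only member of this list past the study's thresholds. Over all tested genes 7.12% passed them. Of 23 kinases, phosphatases and turnover enzymes that act on filament proteins, 22 were tested. At an FDR below 0.05, 9 rose and 9 fell, beside the same shares of all genes, and the median log2FC was 0.10. *AURKB*, a mitotic kinase that phosphorylates vimentin, fell from 37.2 ± 4.60 to 6.16 ± 1.24 CPM (log2FC −2.59, FDR 5.51e-09).

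Of 27 genes of the axonal cytoskeleton and its motors, 24 were tested. At an FDR below 0.05, 12 rose, 7 fell and 5 were not called, beside 38.5% of all tested genes higher and 38.1% lower. Their median log2FC was 0.15. *KIF1A*, a motor of axonal transport, rose from 2.96 ± 0.356 to 25.2 ± 2.22 CPM (log2FC 3.09, edgeR quasi-likelihood FDR 8.85e-11). *MAP2*, a microtubule protein of dendrites, rose from 1.95 ± 0.322 to 14.7 ± 0.924 CPM (log2FC 2.91, FDR 3.25e-10). Among those that fell, *TUBA1A*, a neuronal tubulin (695 ± 49.1 to 266 ± 21.2 CPM, log2FC −1.38), and *DCX*, a microtubule protein of migrating neurons (16.7 ± 2.14 to 4.31 ± 0.372 CPM, log2FC −1.96), are named after their values were seen. *STMN1*, *STMN3*, *KIF5A* and *MAP6* also fell, by 1.12, 1.11, 1.30 and 1.56 on the log2 scale. *STMN2* and *GAP43*, both well-known growth cone genes, did not pass the filter on low counts. The summed level of this list was 2866 to 2931 CPM in OMO and 2459 to 2548 CPM in OMO+DOX, lower in all treated libraries although more of its genes rose than fell.

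Among 29 genes for factors that are known to act on filament genes or their RNA, 24 were tested. At an FDR below 0.05, 12 rose, 9 fell and 3 were not called, beside 38.5% of all tested genes higher and 38.1% lower. The study's thresholds were passed by 5, all higher with DOX, beside 4.38% of all genes higher. The list was drawn up with results of these data known, and *PAX6* passed the filter on low counts only through the OMO+DOX libraries. For both reasons nothing is read from the counts of this list. *PAX6*, a transcription factor of neural progenitors, went from 0.153 ± 0.0681 to 52.9 ± 1.81 CPM (SD, n = 4; log2FC 8.40, edgeR quasi-likelihood FDR 2.00e-13). *MEF2A*, a transcription factor of muscle and neurons whose family is known to act on the desmin gene, rose 17.5-fold from 57.8 ± 4.32 to 1013 ± 48.8 CPM (log2FC 4.13, FDR 5.42e-13). The other 3 were *POU3F2* (log2FC 3.26) and *SOX11* (2.35), a POU and an SRY-box factor of the nervous system, and *MEF2C* (2.54), named because they complete the count. *SOX2* did not pass the filter.

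*MEF2A* begins 430 kb beyond the end of *SYNM* on chromosome 15. Because both rose, the stretch from *IGF1R* to *ADAMTS17* was examined after their values had been seen. It spans 1693 kb and holds 34 annotated genes, of which 13 were tested. Of the 13, 12 were higher with DOX at an FDR below 0.05 and 7 passed the study's thresholds, all upward. Over all tested genes these shares were 38.5% and 4.38%. These counts include *SYNM* and *MEF2A*, whose rise prompted the look. They also include 4 genes below 1 CPM in every OMO library, which passed the filter only through OMO+DOX and so could only come out higher. These were *AC036108.3*, *HSP90B2P*, *LINC02244* and *AC015660.1*. *AC036108.2*, at 0.378 to 1.37 CPM in OMO, likewise needed the OMO+DOX libraries to pass the filter. *IGF1R*, at the left edge, was the exception (log2FC −0.25). *LRRC28* (log2FC 1.79), *LYSMD4* (1.57), *ADAMTS17* (2.28) and *TTC23* (0.63), whose end lies 730 bp from that of *SYNM*, were the other protein-coding genes. *LINC02244* had 0 counts in all OMO libraries and 2.13 ± 0.418 CPM in OMO+DOX, and *AC015660.1* went from the floor to 3.12 ± 0.277 CPM. These genes were chosen for their place around a gene that had risen, and the counts are a description of the stretch from which nothing is read.

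**Figure D5:**
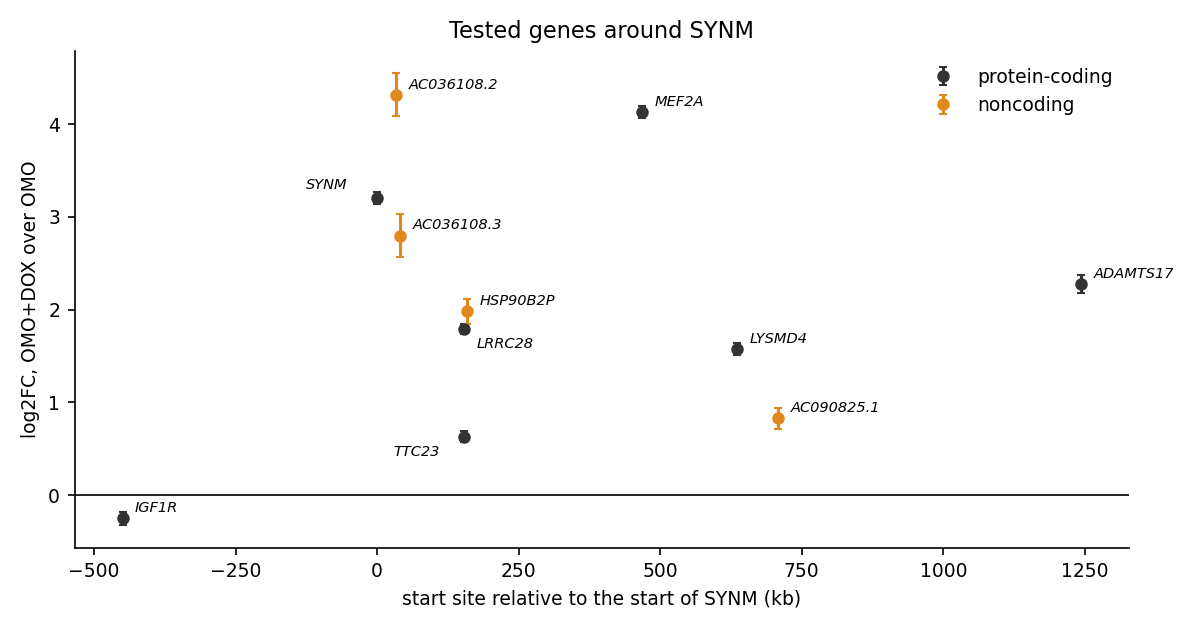
Log2FC (OMO+DOX over OMO, bars for the SE) of 11 of the 13 tested genes from *IGF1R* to *ADAMTS17*, by the distance of their start site from that of *SYNM* in kb. Black points are protein-coding and orange points noncoding genes. *LINC02244* and *AC015660.1*, at the floor in untreated cells, are not drawn. All points but *IGF1R* (−0.25) lie above zero, with *AC036108.2* (4.31) and *MEF2A* (4.13) the highest.

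Among the 10 members, 8 share exonic bases with another annotated gene, most often an antisense transcript. The library kit was stranded, but whether counting used the strand is not stated, so reads of such partners cannot be told apart. The antisense partners of *NEFL*, *NEFH* and *DES* were assigned 0 counts in all 8 libraries. *SYNM* shares 2027 exonic bases with *AC036108.2*, which rose from 0.966 ± 0.436 to 19.2 ± 3.13 CPM (log2FC 4.31). *NEFM* shares 1706 bases with *AF106564.1*, which fell from 9.30 ± 0.374 to 4.90 ± 0.517 CPM (log2FC −0.92) as *NEFM* rose. *PRPH* shares 2445 bases with *AC125611.4* (log2FC −0.35). *GFAP* shares 2230 bases with each of *CCDC103* (log2FC −1.77 ± 0.65, SE) and *FAM187A* (log2FC −1.55 ± 0.40, SE). The groups overlapped for *CCDC103*. RSEM also divided reads between genes. The expected counts of *SYNM*, *VIM*, *NEFM* and *PRPH* were not whole in any of the 8 libraries. Those of *GFAP* were not whole in 6 libraries, and those of *NES*, *NEFL*, *NEFH*, *INA* and *DES* were whole in all 8. In OMO replicate 1, the highest for *GFAP*, *CCDC103* was at 0.253 CPM and *FAM187A* at 2.80 CPM. The other untreated libraries had 2.12 to 2.78 CPM and 1.16 to 1.75 CPM. The part of this division in the *GFAP* values was not tested.

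Across all members, the genes that overlap them and the nearest annotated ones on each side came to 48 genes that are not members. Of these 20 were tested, 4 rose, 12 fell and 4 were not called at an FDR below 0.05, beside 38.5% of all genes higher, 38.1% lower and 76.6% called. The 3 that passed the study's thresholds were *AC036108.2* and *AC036108.3* (log2FC 2.80) beside *SYNM*, and *TUBA1C*, a tubulin gene 18649 bp from *PRPH*, which fell from 11.0 ± 1.47 to 2.33 ± 0.747 CPM (log2FC −2.22). Both *AC036108.2* and *AC036108.3* needed the OMO+DOX libraries to pass the filter on low counts. Beside *NEFH*, *RFPL1S* (log2FC −0.36) and *THOC5* (log2FC −0.72) were lower with DOX and *RFPL1* was not called. *PCGF6* (log2FC −0.89) was the only tested neighbour of *INA*, which was itself not called.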

How the data were processed

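RNA-Seq of 4 OMO and 4 OMO+DOX (72 h) replicates of D283-OMO cells was analysed, and samples were grouped by their labels. The study's methods describe them as independent biological replicates. According to the methods, the authors used Trim Galore for trimming, STAR for alignment (GENCODE release 32) and RSEM for quantification. Versions are not given in the sources used here. They deposited RSEM expected counts per gene, without normalization. The division of reads among genes is thus part of the values.

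The expected counts were rounded, and the 15222 genes that exceeded 1 CPM in 4 or more libraries were tested with edgeR 4.0.16 in R 4.3.3 (TMM, quasi-likelihood test, Benjamini-Hochberg adjustment, no covariates), with the study's thresholds of FDR below 0.001 and absolute log2FC above 2, or FDR below 0.05 for lists. The paper is not uniform here: its results text has an FDR below 0.01 and the filter used here, its methods the FDR used here and a filter that needs more than 4 samples. Both other settings were tried for the count of members called. CPM use TMM-scaled library sizes. Ratios add 0.5 to each count. Coordinates come from GENCODE 29 (GRCh38), which holds 58561 of the 60668 identifiers. The floor of 3 counts covers counting error alone, because reads lacking molecular identifiers need not be separate molecules.

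The members and all gene lists were chosen with earlier results of these data known. Named genes are the members, up to 2 genes a list in each direction past the study's thresholds without overlap (otherwise the largest change at FDR below 0.05), *MYC*, *CAD*, *NCL* and called neighbours. Others were named after their values were seen or as cell type markers.

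Alternatives were DESeq2 size factors, library size only, the Wald test of DESeq2 1.42.0, other filters, an FDR of 0.01, an absolute log2FC above 1, 1 added to counts in ratios, the replicate number as a block and each replicate left out. Leave-one-out fits on the same genes were added after seeing the data. In simulated data for OMO+DOX against OMO with 15222 genes, the fit found 100 of 100 genes planted at a log2FC of 1 and 100 of 100 planted at 3, and 13 other genes passed an FDR of 0.05. The simulation gave every gene the same dispersion and changed the planted genes alone. In the real data 76.6% of genes were called at that FDR, so the simulation does not give their error rate. Transcript-level values and reads were not analysed here. Values of some genes of the marker lists are not reported here.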

Additional observations from a re-analysis of the deposited data

Results flagged for a closer look

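In 91 groups of 4 libraries (the members, their ratios and genes named from the lists), the highest or lowest library was set against the other 3 by Dixon's criterion. It marked 6, where chance alone gives about 1 in 20 groups, or 4.55. Of the 6, 4 concern OMO replicate 3, which stood above the other untreated libraries for *VIM* (1288 CPM) and *PRPH* (17.1 CPM) and below them for the log2 ratio of *SYNM* to *VIM* (−5.37) and for *TTN* (0.851 CPM). OMO replicate 1 stood above the rest of its group for *GFAP* (0.685 CPM) and below it for *PDGFRB* (12.9 CPM).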

How the results depend on the processing

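Over all settings the log2FC ranged from 3.13 to 3.33 for *SYNM*, 2.64 to 2.81 for *NEFL*, 1.87 to 2.04 for *NES*, 1.45 to 1.69 for *DES*, 0.42 to 0.58 for *NEFM*, −0.48 to −0.31 for *VIM*, −1.09 to −0.90 for *PRPH* and −1.73 to −1.54 for *NEFH*. *INA* went from −0.08 to 0.042 with library size only, where 7157 genes were higher and 4715 lower at an FDR below 0.05 (5868 and 5793 with TMM). All genes called numbered 2097 without a filter, 562 where at least 5 libraries had to exceed 1 CPM and 705 to 922 with a replicate left out (705 without OMO+DOX replicate 2), against 1072 to 1091 on the same genes, and 1084 in the fit used. Members called numbered 2 at an FDR below 0.01, 3 with library size only, where *NES* joined, and 6 at an absolute log2FC above 1, beside 20.7% of all genes. Without a filter *GFAP* had a log2FC of −2.05 past an FDR of 0.05, and counts that were 0 became 1 marker of medulloblastoma and neurons higher, 2 of astrocytes higher, 3 of fibroblasts lower and 2 of peripheral neurons and Schwann cells higher, through genes the filter had removed. Fibroblast markers higher numbered 1 to 3 with a replicate left out (1 without OMO+DOX replicate 3 or 4, 2 in the fit used). *DES* was not tested without an OMO+DOX replicate or with the stricter filter.

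The replicate numbers did not pair the samples: deviations of same-numbered libraries correlated at 0.0913 on average, and 2 of 8 libraries correlated best with their own number. With the replicate block 1085 genes were called, and the counts for the members stayed at 5 higher and 3 lower.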
